A study of Tetranychus urticae with 5 samples.

Results

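The genes described are those whose name on the array ends in VGSC, GABA2 or TuCCE-41-AChE, the labels under which the array carries a voltage-gated sodium channel, a receptor for gamma-aminobutyric acid (GABA) and acetylcholinesterase of the spider mite Tetranychus urticae. They were chosen by these names, though with earlier results of these data known, and they are 3 of 19601 genes and 9 of 58803 gene probes, since each has 3 probes. All 3 genes and all 9 probes passed the filter on dim probes, as did 15861 genes in all. On the array their full names are Tetur34g01190_VGSC, Tetur36g00640_GABA2 and Tetur19g01030_TuCCE-41-AChE.

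Total RNA was taken from whole deutonymph females, the last immature stage before the adult, of strain LS-VL, the reference, and of the spirodiclofen-resistant strains SR-VP and SR-TK. All were reared on kidney bean, and SR-VP was kept under 5000 mg/L and SR-TK under 1000 mg/L of spirodiclofen, an acaricide that inhibits acetyl-CoA carboxylase, whereas no acaricide is named for LS-VL. RNA came from pools of about 200 mites, so each value is an average over animals. Each of 5 arrays paired a resistant strain (Cy5) with LS-VL (Cy3): SR-VP was on 3 and SR-TK on 2, all given as biological replicates, while it is not stated if the LS-VL RNA of each array was a separate extract. The dyes were never swapped, so a dye effect particular to a probe and a strain difference cannot be told apart. No array name matched the symbols looked for: Vg or vitellogenin (yolk protein), and spook, phantom, disembodied, shadow or shade (moulting hormone synthesis). Such genes under other names were not looked for, so sex and stage were not checked against markers.

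Nerve cells signal by opening ion channels and by releasing transmitters. The voltage-gated sodium channel carries the rising phase of the action potential and is the site where pyrethroids act. GABA opens a chloride channel in arthropods that quiets the receiving cell, and cyclodienes and fipronil block it. Acetylcholinesterase splits acetylcholine in the synapse and ends its signal, and organophosphates and carbamates inhibit it. The array thus measures transcripts of nerve proteins that acaricides other than spirodiclofen bind.

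The share of gene probes well above background ranged over arrays from 54.0% to 75.6% in Cy5 and from 58.9% to 71.2% in Cy3, and both lowest shares were those of SR-VP replicate 3. On that array the lowest net signal (median foreground minus median local background, in intensity units of the scanner) that counted as well above background was 215 in Cy5, where the other arrays had 10 to 14.5, and 66 in Cy3, where they had 16 to 18.5. These are no strict limits, since member spots of up to 307 in Cy5 were not counted there. A probe of moderate brightness could thus pass on 4 arrays and miss on that one. No member spot was saturated or marked as an outlier.

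VGSC was the brightest of the 3 genes and the only one whose 3 probes were well above background in both channels on all 5 arrays. For its probe CUST_394 the net Cy5 signal was 564, 506 and 584 on SR-VP replicates 1, 2 and 3, and 293.5 and 343.5 on SR-TK replicates 1 and 2. The net SR-VP and SR-TK values of this probe did not overlap. Its processed Cy5 signals, already corrected for background and dye, did overlap. They ran from 214.6 to 570.8 in SR-VP and were 292.5 and 365.0 in SR-TK. The share of all gene probes whose strains separate by net signal was not counted. In LS-VL the net signal of the same probe was 177, 229.5 and 233 on the SR-VP arrays and 130 and 175 on the SR-TK arrays, so its LS-VL signal was also lower on the SR-TK arrays. After normalization of both channels this probe had log2 ratios (resistant strain over LS-VL) of 0.25, 0.12 and 0.17 in SR-VP and −0.18 and −0.03 in SR-TK. Probe CUST_395 gave net Cy5 signals of 424, 401.5 and 502.5 in SR-VP and of 392 and 284 in SR-TK, with 138 to 235 in LS-VL. Probe CUST_396 gave 398, 339.5 and 433 in SR-VP and 296 and 296 in SR-TK, with 145 to 196 in LS-VL. The net signals of the strains did not overlap for these probes either, but their processed Cy5 signals did. The median Cy5 foreground of all gene probes, with no background subtracted, was also higher on the SR-VP arrays (234.5 to 401) than on the SR-TK arrays (223 and 232). For replicate 1 these medians were close, at 234.5 in SR-VP and 232 in SR-TK. After normalization the Cy5 signals of both probes overlapped between the strains. Their log2 ratios in SR-VP lay on both sides of 0, from −0.19 to 0.20 and from −0.17 to 0.09. In SR-TK all 3 probes had log2 ratios below 0 on both arrays, the lowest being −0.33 for CUST_395.

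GABA2 was the dimmest of the 3 genes on every array. Its probe CUST_400 gave a net Cy5 signal of 100.5, 104 and 203 on the SR-VP arrays and of 89 and 106 on the SR-TK arrays, and a Cy3 signal of 42.5, 60, 91, 32 and 57 on the same arrays. The high value in each dye was that of SR-VP replicate 3, the array with the raised detection level. CUST_402 was of like brightness, with 93.5, 116.5 and 147.5 in SR-VP, 74 and 76 in SR-TK and 33 to 63 in LS-VL. CUST_401 was near the detection level, with a net Cy5 signal of 27.5 to 94 and an LS-VL signal of 17 to 46, and was well above background in LS-VL on 1 of 5 arrays and in Cy5 on 4. For this probe the log2 ratios, from −0.12 to 0.10 over the 5 arrays, say little of its transcript, since the background correction adds 50 units to each signal, which by construction shrinks the ratios of dim probes. CUST_400 ran from −0.16 to 0.22 and CUST_402 from −0.07 to 0.23, each on both sides of 0.

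TuCCE-41-AChE lay between them, and its probes differed in brightness. CUST_237 was the brightest, with a net Cy5 signal of 286, 382 and 303 on SR-VP replicates 1, 2 and 3 and of 291 and 211.5 on SR-TK replicates 1 and 2. CUST_236 gave 189.5, 283 and 307 in SR-VP and 252 and 183.5 in SR-TK, and CUST_235 gave 55.5, 56.5 and 145 in SR-VP and 68.5 and 72 in SR-TK. The strains overlapped for each of these probes. In LS-VL the medians over 5 arrays were 93, 71 and 31 in the order CUST_237, CUST_236 and CUST_235. The probes share the gene name but not their brightness, so a signal here is no measure of the number of transcripts. None of the 3 probes was well above background in Cy5 on SR-VP replicate 3, and CUST_235 was not in Cy3 there either. The log2 ratios of CUST_236 were 0.28, 0.48 and −0.18 in SR-VP and 0.35 and 0.32 in SR-TK, and those of CUST_237 were 0.26, 0.49 and −0.12, and 0.20 and 0.20. The 2 brighter probes thus moved together from array to array, while CUST_235 stayed between −0.07 and −0.02 in SR-VP and at 0.23 and 0.24 in SR-TK.

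**Figure D1:**
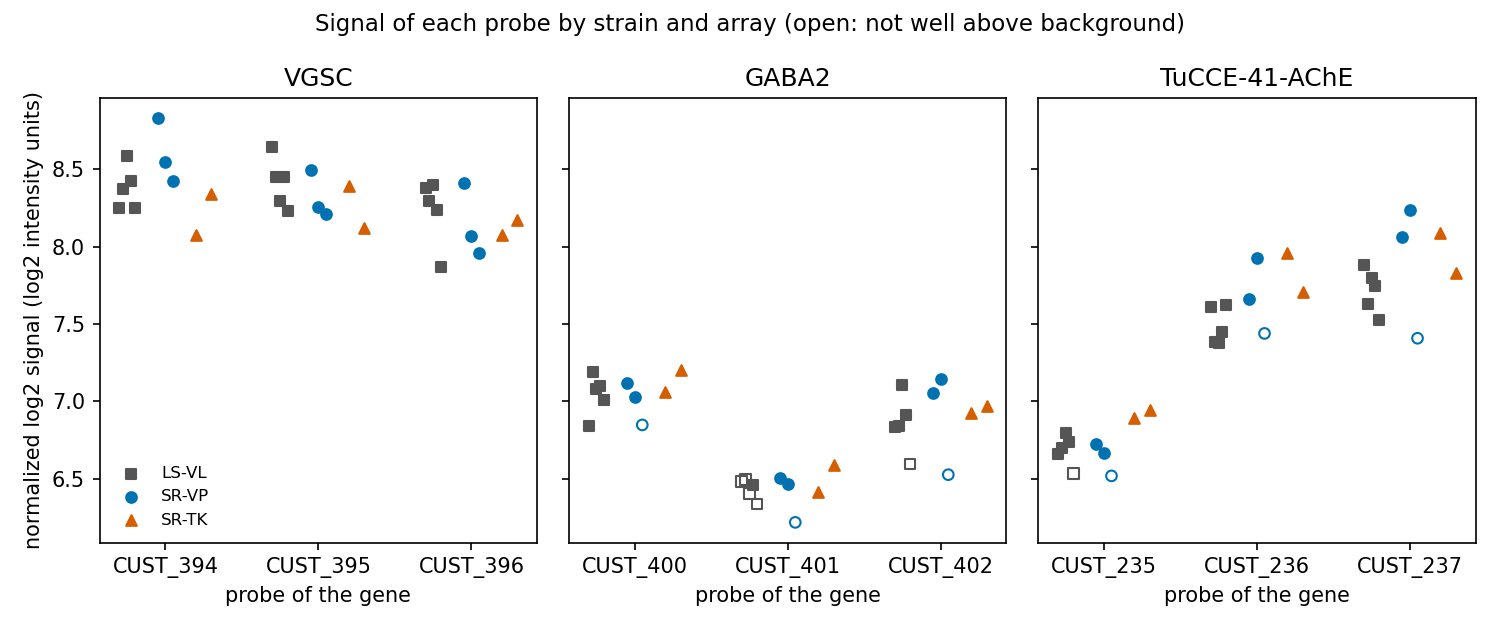
Normalized log2 signal of each probe (y axis, log2 intensity units) on each array, for LS-VL (grey squares, Cy3, 5 arrays), SR-VP (blue circles, Cy5, 3 arrays) and SR-TK (orange triangles, Cy5, 2 arrays); open symbols were not well above background. VGSC probes lie highest, CUST_401 of GABA2 lies lowest, and the open symbols are from SR-VP replicate 3 or from CUST_401.

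Ranked among all 19601 genes by the mean normalized signal of their probes, VGSC stood above the middle and GABA2 in the lower part. In LS-VL, VGSC was brighter than 55.9% to 60.7% of genes over the 5 arrays (median 60.1%). TuCCE-41-AChE was brighter than 43.7% to 46.0% of genes (median 44.9%), and GABA2 than 33.5% to 36.5% (median 36.1%). Among all gene probes in LS-VL the median rank was 59.7% to 61.6% for the 3 VGSC probes, 29.7% to 42.7% for those of GABA2 and 35.5% to 52.7% for those of TuCCE-41-AChE. In SR-VP the gene medians over 3 arrays were 58.3% for VGSC, 47.0% for TuCCE-41-AChE and 36.9% for GABA2. In SR-TK, over 2 arrays, they were 57.3%, 48.2% and 36.7%. The order VGSC, TuCCE-41-AChE, GABA2 was the same in both channels of all 5 arrays, but because probes of 1 gene name differ in brightness it ranks signals and not numbers of transcripts.

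**Figure D2:**
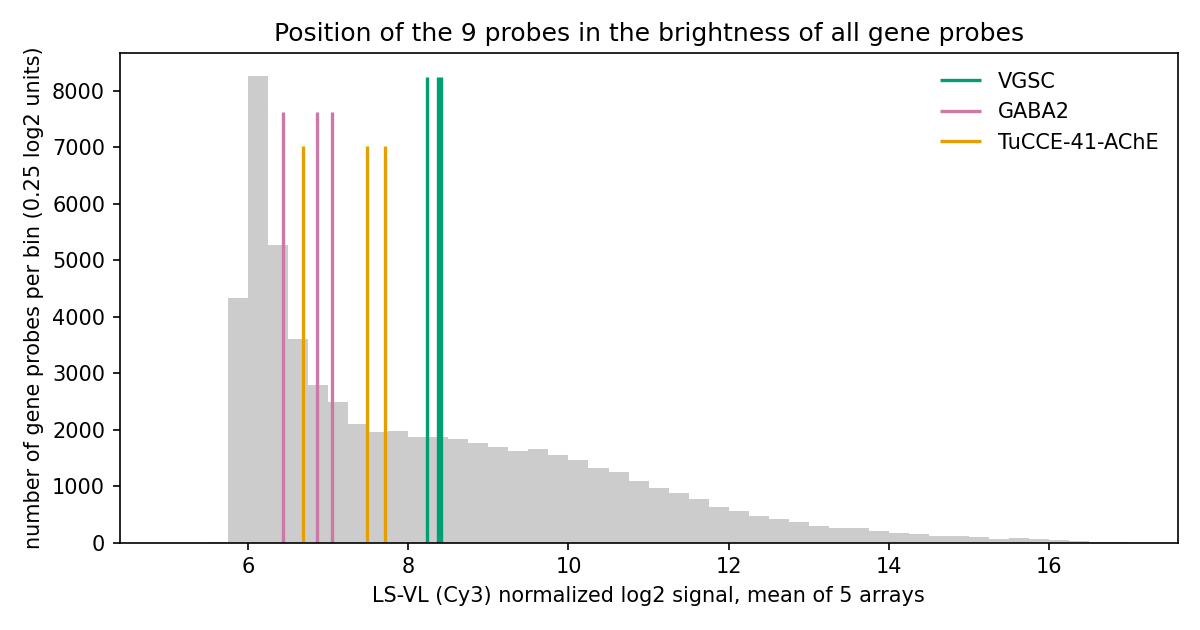
Number of gene probes (y axis) by mean normalized LS-VL signal over 5 arrays (x axis, log2 intensity units), with the 9 probes as vertical lines whose height has no meaning. The tallest bins lie at the dim end, to the left of or at the dimmest GABA2 line, and the VGSC lines lie close together to the right of the others.

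The strains were then compared by level, where fewer nerve cells in the mites and less RNA per nerve cell cannot be told apart. For VGSC the mean normalized log2 signal was 8.34 ± 0.13 in LS-VL (SD, n = 5 arrays), 8.36 ± 0.20 in SR-VP (n = 3) and 8.20 ± 0.02 in SR-TK (n = 2). For TuCCE-41-AChE these were 7.30 ± 0.07 in LS-VL, 7.40 ± 0.25 in SR-VP and 7.57 ± 0.11 in SR-TK, and for GABA2 they were 6.78 ± 0.09, 6.77 ± 0.21 and 6.86 ± 0.08. By level TuCCE-41-AChE thus had the order SR-TK, SR-VP, LS-VL, and VGSC the order SR-VP, LS-VL, SR-TK. For GABA2 the order was SR-TK, LS-VL, SR-VP. No neighbours in these orders passed a test between the strains, as given next.

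SR-VP was first set against LS-VL, the question being whether these nerve genes differ in level in a strain kept under spirodiclofen. VGSC had log2 ratios of 0.15, −0.08 and 0.08 on replicates 1, 2 and 3, which lay on both sides of 0. Their mean was 0.05 ± 0.07 (SE, n = 3, adjusted p = 0.691 by limma, 95% interval −0.12 to 0.23). GABA2 had 0.03, 0.06 and −0.12, with a mean of −0.01 ± 0.07 (adjusted p = 0.942, interval −0.17 to 0.15). TuCCE-41-AChE had 0.16, 0.30 and −0.10, with a mean of 0.12 ± 0.09 (adjusted p = 0.462, interval −0.10 to 0.34). The low value in GABA2 and in TuCCE-41-AChE was replicate 3, on which none of the Cy5 spots of these genes was well above background. With median centring in place of loess VGSC was at 0.26 (adjusted p = 0.108), while the median of all genes moved to 0.12. Without replicate 3 the SR-VP log2 ratio of TuCCE-41-AChE was 0.23 (adjusted p = 0.120) and that of GABA2 was 0.04 (adjusted p = 0.679).

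SR-TK was compared with LS-VL in the same way. TuCCE-41-AChE had log2 ratios of 0.26 and 0.26 on replicates 1 and 2, both above 0, with a mean of 0.26 ± 0.11 (SE, n = 2, 1.197-fold, adjusted p = 0.211 by limma, 95% interval −0.01 to 0.53). All 3 of its probes were above 0 on both arrays, from 0.20 to 0.35. With the scanner's processed signals, which carry no added 50 units, its log2 ratio was 0.51 (interval 0.06 to 0.96, adjusted p = 0.152). VGSC had −0.24 and −0.16, both below 0, with a mean of −0.20 ± 0.09 (0.869-fold, adjusted p = 0.222, interval −0.42 to 0.01), and with processed signals it was at −0.37 (adjusted p = 0.152). With median centring the VGSC value turned to 0.06, while the median of all genes moved to 0.22, so that VGSC stood 0.15 below that median. GABA2 had 0.08 and 0.08, with a mean of 0.08 ± 0.08 (adjusted p = 0.598, interval −0.12 to 0.28), with 0.22 by processed signals and −0.14 with median centring.

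The difference between the resistant strains, in which a dye effect common to all arrays cancels, was −0.26 ± 0.11 for VGSC (SR-TK minus SR-VP, log2, adjusted p = 0.597 by limma, 95% interval −0.53 to 0.02). All SR-VP arrays lay above both SR-TK arrays for this gene. The differences of TuCCE-41-AChE (0.14 ± 0.14, adjusted p = 0.853, interval −0.21 to 0.49) and of GABA2 (0.09 ± 0.11, adjusted p = 0.876, interval −0.17 to 0.35) were within the spread of the arrays, with overlapping strains for TuCCE-41-AChE. GABA2 lay higher on both SR-TK arrays (0.08 and 0.08) than on any SR-VP array, but the highest SR-VP value was close, at 0.06. The share of all genes whose strains separate as those of VGSC and GABA2 do was not counted. With processed signals the differences were −0.41 for VGSC, 0.42 for TuCCE-41-AChE and 0.15 for GABA2, with adjusted p of 0.530, 0.671 and 0.887.

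**Figure D3:**
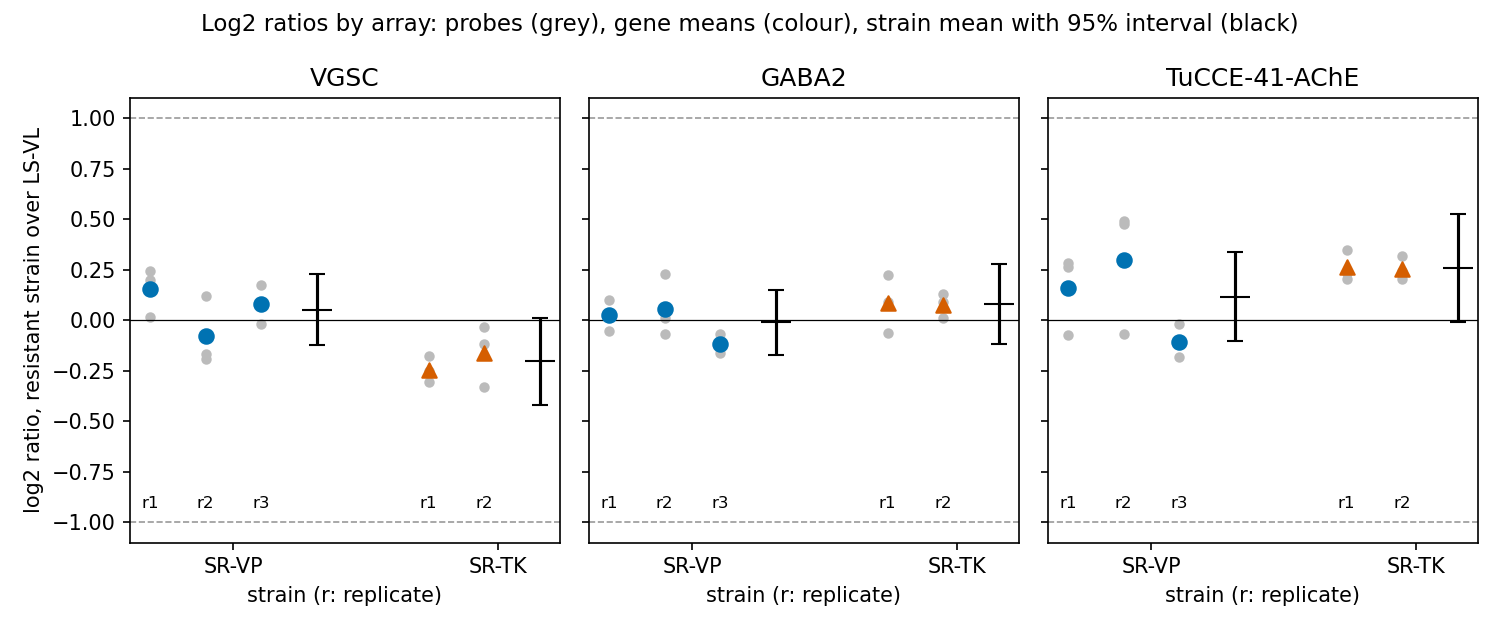
Log2 ratio of resistant strain over LS-VL (y axis) on each array (r1 to r3, replicates), with probes in grey, gene means in colour and the strain mean with its 95% interval in black; dashed lines mark a log2 ratio of 1 in either direction. All 6 intervals include 0 and end well inside the dashed lines.

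A call required at least a 2-fold difference in either direction together with a limma p under 0.05 after Benjamini-Hochberg adjustment, and none of the 3 genes met it in any comparison. Over all genes tested 1.95% were called in SR-VP, 2.28% in SR-TK and 0.214% between the strains, so 0 of 3 is near this background. By adjusted p alone 11.3%, 8.34% and 0.252% of genes passed, and none of the 3 did. At an unadjusted p under 0.05 these shares were 26.9%, 25.2% and 9.12%, and again none of the 3 passed. A p that misses the threshold does not show equal levels, but the 9 intervals bound the differences: the widest reach was −0.53 for VGSC between the strains and 0.53 for TuCCE-41-AChE in SR-TK, each short of the 2-fold change that a call needs. With processed signals the bounds were wider, down to −0.83 for VGSC between the strains and up to 0.96 for TuCCE-41-AChE in SR-TK and 0.998 between the strains, the last close to 2-fold. In size, the SR-VP log2 ratio of GABA2 exceeded that of 4.70% of all genes, that of VGSC 23.5% and that of TuCCE-41-AChE 48.8%. In SR-TK these shares were 30.3%, 63.9% and 73.4%.

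**Figure D4:**
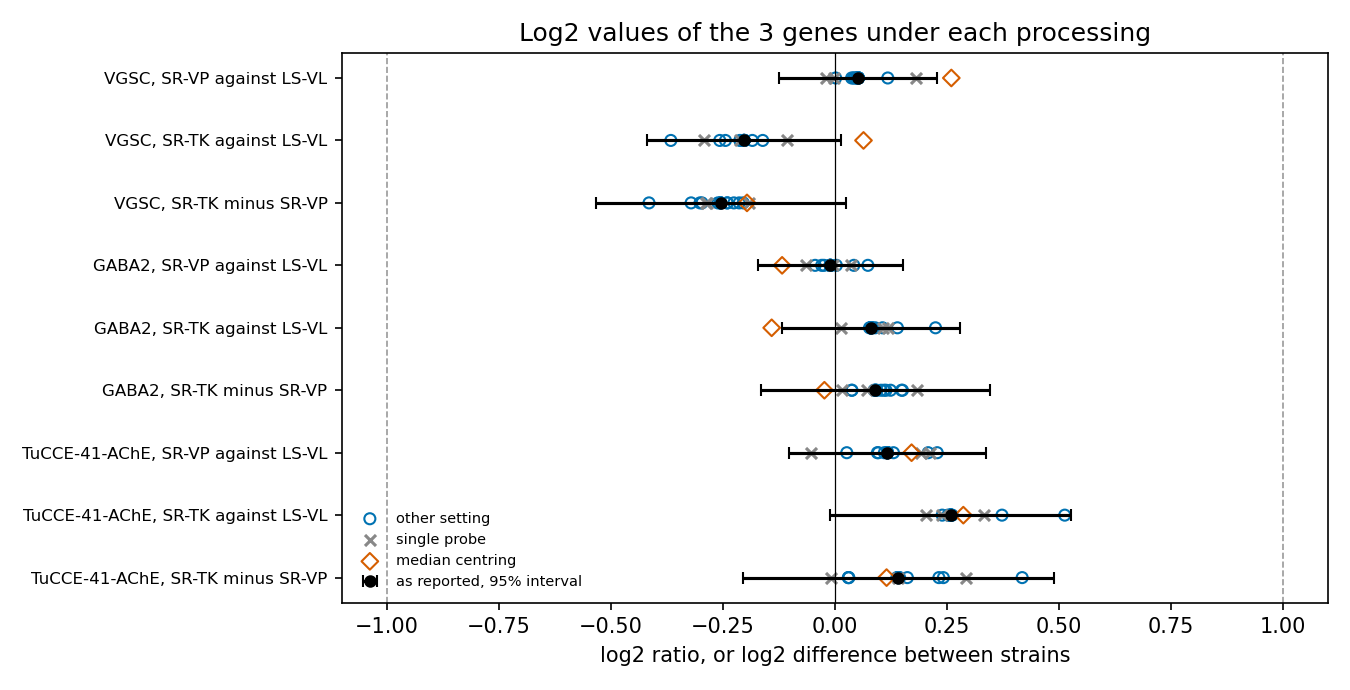
Log2 value of each gene in each comparison (x axis) as reported, with its 95% interval (black), and under every other processing tried (blue circles), by single probes (grey crosses) and with median centring (orange diamonds); dashed lines mark a log2 value of 1 in either direction. All values lie between −0.41 and 0.51, and median centring lies outside the reported interval for VGSC in SR-VP and for VGSC and GABA2 in SR-TK.

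The spread over arrays was small for GABA2. The SD of its log2 ratio over all 5 arrays was 0.08, below that of all but 13.0% of genes, where the median gene had 0.16. GABA2 is also the dimmest of the 3, and the share of the added 50 units in its small spread was not tested. VGSC and TuCCE-41-AChE lay near the median, with SDs of 0.17 and 0.16. For the LS-VL signal alone the probe mean of TuCCE-41-AChE was the steadiest, with an SD of 0.07 log2 units over 5 arrays that 7.35% of genes undercut, against 0.09 for GABA2 and 0.13 for VGSC and a median of 0.16. Its single probes CUST_235, CUST_236 and CUST_237 had SDs of 0.10, 0.12 and 0.14, each larger than that of their mean. The share of the added 50 units was not tested for this gene either. The probes of TuCCE-41-AChE differed most in SR-VP, where the SD over its 3 probe means was 0.15, larger than in 74.0% of genes with 3 probes. There CUST_235 had a mean log2 ratio of −0.05 and CUST_237 of 0.21. In SR-TK the SD over the probes of this gene was 0.07, larger than in 32.6% of genes. The added 50 units shrink the ratios of CUST_235, and their share in these SDs over probes was not tested.

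The lists were searched by symbol, and 367 of the 19601 genes on the array carry a symbol. Among these no further ion channel, transmitter receptor or synapse enzyme of the nervous system list was found, so the 3 genes are all its matches. Nerve genes or acaricide targets that stand on the array without a symbol could not be found this way. The list of acaricide targets added RyR, a calcium release channel of muscle and nerve that diamides open, PSST, a subunit of mitochondrial complex I where acaricides block electron transport, and ACCase, the target of spirodiclofen. None of these 6 genes was called in a comparison, which is near the 1.95%, 2.28% and 0.214% called over all genes, and their median log2 ratio was 0.02 in SR-VP and −0.02 in SR-TK, beside 0.00 and 0.02 over all genes. RyR was at −0.19 ± 0.15 in SR-VP and −0.22 ± 0.19 in SR-TK (SE), PSST at −0.18 ± 0.06 and −0.13 ± 0.08. ACCase had the largest log2 ratios of the 6 (adjusted p = 0.089 in SR-VP and 0.116 in SR-TK), on every array above those of VGSC and GABA2 but below that of TuCCE-41-AChE on SR-VP replicate 2 (0.23 against 0.30) and SR-TK replicate 2 (0.20 against 0.26). In LS-VL the median rank over arrays was 97.6% for PSST, 90.6% for ACCase and 78.6% for RyR, so the nerve genes gave the dimmest signals of the list.

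TuCCE-41-AChE belongs to the carboxyl/cholinesterases, ester-hydrolysing enzymes of which 56 of 59 names starting with TuCCE were measured. In that family 5 genes were higher and 3 lower in SR-VP, and 5 were higher and 4 lower in SR-TK, with the acetylcholinesterase among the 48 and 47 not called, where 1.95% and 2.28% of all genes were called. The family medians were −0.02 and −0.01. In the difference between the strains 1 member was lower in SR-TK and 55 were not called, beside 0.214% called over all genes. The suffixes nrl, nrt and gli, which match the usual abbreviations of neuroligin, neurotactin and gliotactin, adhesion proteins of this family without esterase activity, stand on 7 names, and these were looked up after the names on the array had been seen. None of the 7 was called in any comparison, which is near the shares over all genes. By adjusted p alone 1 of the 7 passed, in SR-VP, where 11.3% of all genes did: TuCCE-34-nrl at −0.29 ± 0.06 (log2, adjusted p = 0.036 by limma), with −0.32, −0.31 and −0.25 on its arrays. TuCCE-26-nrl was below 0 on all 5 arrays (−0.26 ± 0.07 in SR-VP, adjusted p = 0.069). The largest log2 ratio of the 7 was that of TuCCE-14-nrl in SR-TK, −0.46 ± 0.21 (adjusted p = 0.236), beside −0.13 ± 0.17 in SR-VP. TuCCE-10-nrt had −0.06 ± 0.08 in SR-VP and 0.12 ± 0.10 in SR-TK, and TuCCE-22-nrl had 0.10 ± 0.06 and −0.05 ± 0.08. TuCCE-52-gli had −0.25 ± 0.07 in SR-TK (adjusted p = 0.104), beside 0.02 ± 0.06 in SR-VP, and TuCCE-54-nrl had 0.23 ± 0.07 in SR-TK (adjusted p = 0.120). The median of the 7 was −0.06 in SR-VP and −0.11 in SR-TK.

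The genes with a symbol whose pattern was most like that of each gene were found by the Pearson correlation of the 10 normalized channel values (Cy5 and Cy3 of 5 arrays), over 352 genes. These values share arrays, dyes and LS-VL, so the correlations are a description. For VGSC they were CCEinc-10 (r = 0.87), pABC-32 (0.83) and pABC-10 (0.80), beside a median r of 0.01 over the genes compared. For GABA2 they were TuABCG-07 (0.94), TuGSTinc06 (0.88) and CCEinc-05 (0.88), beside a median of 0.07. The median LS-VL ranks of these matches were 27.1%, 37.5% and 22.8%, so they were dim genes, as GABA2 was (36.1%). CCEinc-05 rested on 1 kept probe. The share of low brightness in these correlations was not tested, so they do not show a link particular to GABA2. For TuCCE-41-AChE they were Tetur02g07240, given only as CYP (0.88), pABC-35 (0.87) and TuCCE-18 (0.86), beside a median of 0.23. Of these, pABC-35 rested on 1 kept probe. Between the nerve genes r was 0.65 for GABA2 and TuCCE-41-AChE, 0.46 for VGSC and GABA2 and 0.07 for VGSC and TuCCE-41-AChE.

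Each of the 3 gene numbers stands on the array a second time without a symbol, and the signals there were unlike. Tetur34g01190 was brighter than 12.5% to 26.8% of genes in LS-VL, far below VGSC, and Tetur36g00640 than 60.3% to 63.5%, far above GABA2. Tetur19g01030 was brighter than 1.85% to 9.56% and passed the filter with none of its probes. The log2 ratio of Tetur34g01190 was 0.28 in SR-VP (adjusted p = 0.033 by limma) and −0.08 in SR-TK (adjusted p = 0.528), and that of Tetur36g00640 was 0.01 and −0.11 (adjusted p = 0.951 and 0.525). Tetur34g01190 thus passed by adjusted p alone in SR-VP, where 11.3% of all genes did. Over the 10 channel values r was 0.68 for Tetur34g01190 and VGSC and 0.20 for Tetur36g00640 and GABA2. Whether names with equal numbers measure the same gene cannot be settled without probe sequences, so they were kept apart. The values given for VGSC, GABA2 and TuCCE-41-AChE rest on the names with a symbol alone.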

How the data were processed

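Per the file headers, the authors deposited for each array the intensity of every spot (median foreground and median local background) together with processed intensities, already corrected for background and dye. The submitters' processing notes name Agilent Feature Extraction 10.5. The log10 ratios deposited by the authors were used to check the log2 ratios computed here, with correlations over gene probes of 0.77 to 0.89. The authors' deposited lists of fold changes were not used, since their gene numbers could not be matched to the array names.

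Here background was corrected by normexp (offset 50), followed by loess within arrays, control spots at weight 0, and Aquantile between arrays (limma 3.58.1, R 4.3.3). Outlier spots and names starting with Rep were left out. Probes stayed in if 2 or more arrays of a strain had them well above background in 1 channel, and the probes of a gene were averaged. A limma model of all 5 arrays with a mean per strain (3 residual and 3.07 prior degrees of freedom) was adjusted by Benjamini-Hochberg over 15861 genes. Both strains thus share 1 estimate of the spread. The fit was tested on simulated data. Intervals are 95% intervals of that fit. The number of arrays limits the precision. P-values measure the spread between these arrays.

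Named genes were the 3 genes, all matches of the nervous system and acaricide target lists, and the 3 genes with a symbol most alike to each; the nrl, nrt and gli names were added. The sex and stage list had no match. The genes, lists and tests were chosen with earlier results of these data known. Alternatives were other background corrections, normalizations, filters, probe summaries, call rules and sets of arrays. All arrays lay on 1 slide, so slide was no block. The RefSeq table matched 0 of the 3 names.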

Additional observations from a re-analysis of the deposited data

Results flagged for a closer look

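The LS-VL signal of VGSC on SR-VP replicate 3 lay apart from the other 4 arrays. It was 8.12 log2 units against 8.37 to 8.43, a gap of 0.817 of the whole range, past Dixon's critical value for 5 samples. Of the 12 groups of 5 LS-VL values looked at (3 genes and 9 probes), chance flags about 1 in 20. SR-VP replicate 3 is also the array with the raised detection level.

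In 3 cases, among all named genes and the 9 probes of the 3 genes, every SR-VP array lay on the other side of 0 from every SR-TK array. The share of all genes with such a split was not counted, so these cases are a description. Probe CUST_394 of VGSC was higher than LS-VL in SR-VP and lower in SR-TK, a difference of −0.29 log2 units (adjusted p = 0.606 in the limma fit over all probes). Probe CUST_235 of TuCCE-41-AChE went the other way by 0.29 (adjusted p = 0.545). TuCCE-22-nrl was above 0 on all SR-VP arrays and below 0 on both SR-TK arrays, with a difference of −0.14 (adjusted p = 0.763). None of these differences passed the test.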

How the results depend on the processing

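Over the alternatives the 3 genes had 156 values, of which 51 could not or did not move (such as those by adjusted p alone, with no normalization between arrays, or without arrays of the other strain). Of the others, 94 kept their direction and 11 changed sign. None was called by limma under any of them, by adjusted p alone included, with adjusted p from 0.088 to 0.996 and 14 at an unadjusted p under 0.05, and the outermost 95% bounds were −0.83 (VGSC) and 0.998 (TuCCE-41-AChE), both between the strains with processed signals. GABA2 in SR-VP (−0.01) turned to 0.0035 with no background correction, 0.074 with processed signals, 0.037 by probe CUST_402 alone and 0.042 without SR-VP replicate 3. Median centring, which moved the median of all genes to 0.12 in SR-VP and 0.22 in SR-TK, turned VGSC in SR-TK to 0.064, GABA2 in SR-TK to −0.14 and GABA2 between the strains to −0.023. By single probes VGSC in SR-VP turned to −0.0029 (CUST_395) and −0.020 (CUST_396), and TuCCE-41-AChE turned to −0.053 in SR-VP (CUST_235) and −0.0090 between the strains (CUST_237). The cause was not tested. On leaving out arrays GABA2 in SR-VP ranged from −0.044 to 0.042, TuCCE-41-AChE from 0.03 (without SR-VP replicate 2) to 0.23 (without SR-VP replicate 3) in SR-VP and from 0.03 (without SR-VP replicate 3) to 0.23 (without SR-VP replicate 2) between the strains, and VGSC from 0.0018 (without SR-VP replicate 1) to 0.12 (without SR-VP replicate 2) in SR-VP and from −0.32 to −0.20 between the strains. GABA2 between the strains fell to 0.04 without SR-VP replicate 3. With only probes above background everywhere, GABA2 and TuCCE-41-AChE had no value. Only the number links equal replicates of the strains. Replicate 3 exists in SR-VP alone, so a replicate block takes up that array. The differences between strains with the block were by construction those without SR-VP replicate 3, and no separate check. They were −0.24 for VGSC, 0.04 for GABA2 and 0.03 for TuCCE-41-AChE. With the block 2 genes of the array were called in place of 34.

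The genes called over the whole array, 310 in SR-VP, 362 in SR-TK and 34 between the strains, became 483, 565 and 53 with an offset of 10, and 655, 806 and 19 with processed signals. Median centring gave 753 in SR-TK and 77 between the strains, with 82.6% of the former higher against 60.8%. By adjusted p alone 1792 and 1323 passed in SR-VP and SR-TK. With only its own arrays SR-TK had 70, and with only probes above background everywhere 11 differed between the strains. Leaving out an array gave 255 to 315 in SR-VP, 328 to 408 in SR-TK and 0 to 13 between the strains.

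Ranked among the probes kept by the filter in place of all, the mean rank of the probes in Cy5 and Cy3 fell to 46.1% and 47.2% for VGSC, 17.7% and 16.5% for GABA2 and 31.1% and 27.9% for TuCCE-41-AChE, because fewer dim probes are counted. With processed signals the Cy3 rank of TuCCE-41-AChE was 46.5%. The log2 level in processed signals, which carry no offset, was 7.95 and 8.07 for VGSC, 5.38 and 5.25 for GABA2 and 6.73 and 6.47 for TuCCE-41-AChE in Cy5 and Cy3.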
